A study of Mus musculus with 14 samples.

Results

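The mitochondrial ribosomal protein genes are the nuclear genes whose symbols begin with Mrpl or Mrps followed by a number, and whose FPKM (fragments scaled to exon length and to the fragments mapped in the library) reached 1 in at least 2 of the 14 libraries. All 76 matching symbols met this level, out of 23427 genes in the table, and none was a pseudogene entry. The lowest value of any of them in any library was 3.96 FPKM, so none lay close to the limit and none fell outside it. The study asked what happens when Secisbp2l (SECIS binding protein 2 like, written Sbp2l in the group names) is knocked down in mouse primary oligodendrocyte precursor cells (OPCs) as they differentiate into oligodendrocytes (OLs), the myelin-forming cells of the brain.

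Cells came from cortices of C57BL/6J pups, pooled, at the end of the first postnatal week, and were bound to a dish coated with antibody against PDGFRα after cells binding a lectin had been removed. Day0 is the OPC before differentiation. The other 6 groups are Day3 cells, and the study counts days from withdrawal of growth factors and addition of thyroid hormone, although its account of the transfected cultures does not restate the medium and the labels name a serum medium for all samples: a non-treated and a mock-transfected group, the negative controls NC siRNA #1 and NC siRNA #2, and siRNA against Secisbp2l (siSbp2l) or against Pdgfra (siPdgfra), the PDGF receptor that marks OPCs. All groups carried wild-type genomes, so the knockdowns (KDs) were transient, each KD group is labelled with the gene it targets, and every group had 2 libraries. Each library is a whole culture, so a change in the kinds of cell present and a change of RNA within a cell cannot be told apart.

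Mitochondria hold their own ribosomes, which make the respiratory chain and ATP synthase subunits encoded in mitochondrial DNA. Their RNA comes from mitochondrial DNA, but every protein of both subunits is encoded in the nucleus, made by cytosolic ribosomes and imported. Of the 76 genes, 49 encode proteins of the large subunit and 26 of the small subunit, and 46 have bacterial homologues while 29 were added in the mitochondrial lineage. The remaining gene, Mrps36, keeps its ribosomal name although its product is a component of the 2-oxoglutarate dehydrogenase complex. Mrps30 and Mrps18a, despite the small-subunit letter, belong to the large subunit. Growing and dividing cells need these proteins in step with the mitochondria they build, and maturing OLs are known to shift their energy use as they make myelin.

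The sequencing held 6556043 to 31565422 fragments per library as recovered from the FPKM steps, with the lowest in NC siRNA #2 replicate 2, and a member was represented by a median of 533 fragments and at least 35.0. The 2 non-treated libraries stood apart: over the 76 genes the median log2 difference between them was -0.39, with 67 of 76 lower in replicate 2, whereas the same median lay between -0.072 and 0.044 in the other 6 groups. Counts of called genes that used the non-treated group are therefore given with and without it, and all genes tested were called more often without it. Counts under other scalings, other fits, single control groups or left-out libraries have no share of all genes beside them. They show how far the calls of members moved, not an excess over all genes. Each KD group was low in its target: Secisbp2l was 3.91 and 3.82 FPKM in siSbp2l against 135 to 255 in the 8 control libraries of Day3, and Pdgfra was 3.30 and 2.69 FPKM in siPdgfra against 32.4 to 72.1. The target of the other KD also differed from these controls, by the limma test used below. Pdgfra was higher in siSbp2l (log2 difference 1.54 ± 0.083 SE, adjusted p = 4.73e-07). Secisbp2l was lower in siPdgfra (-0.31 ± 0.11 SE, adjusted p = 0.0368), a call lost in 12 of 27 alternative settings.

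Promoters of these genes lack a common TATA box and often hold sites for factors that serve many housekeeping genes. RefSeq promoter windows of build GRCm38.p6, from 250 bases before to 50 after each start, were matched for 67 of the 76 genes. A gene was counted as holding a motif if any of its windows held it, so a gene with more windows had more chances. The letters CCGGAAG (or CTTCCGG on the other strand) are the core bound by GABPA and other ETS factors. They stood in 24 of the 67 genes (35.8%), against 20.7% of 8729 genes expressed here with a window and 9.93% of all 27025 genes. AAGATGGC, a core of the YY1 site, stood in 12 of 67 (17.9%, against 5.6% of expressed genes and 3.19% of all), and GCGCATGCG, within the NRF1 site, in 7 of 67 (10.4%, against 4.44% and 1.95%). The GC box GGGCGG was held by 49.3% of the members and 71.4% of expressed genes, the E-box CACGTG by 7.46% and 12.1%, and TATAAA by 7.46% and 7.95%. Each was searched on both strands, and none of these motifs contains another. Such a match is only a run of letters.

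The 6 upstream windows below are shown because their genes carry the differences described later: Mrps23 and Mrpl10 fell after siPdgfra, Mrps22 and Mrpl22 rose after both KDs, and Mrpl42 and Mrpl52 were among the lowest on Day3 relative to Day0. They are read 5′ to 3′ on the strand of the gene, end at or just before its start, leave out annotated exon bases, and carry matches to the ETS, NRF1 and YY1 letters in capitals. They lie at chr11:88204238-88204387 (plus strand), chr11:97041410-97041559 (plus strand), chr9:98601680-98601829 (minus strand), chr11:58171511-58171660 (plus strand), chr10:95501950-95502099 (minus strand) and chr14:54426759-54426908 (plus strand).
Mrps23: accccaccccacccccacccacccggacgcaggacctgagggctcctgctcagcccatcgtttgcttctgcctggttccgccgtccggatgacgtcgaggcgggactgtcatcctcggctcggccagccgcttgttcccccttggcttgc
Mrpl10: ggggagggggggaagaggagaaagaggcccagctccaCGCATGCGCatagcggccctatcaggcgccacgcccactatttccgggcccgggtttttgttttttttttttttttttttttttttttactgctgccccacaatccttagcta
Mrps22: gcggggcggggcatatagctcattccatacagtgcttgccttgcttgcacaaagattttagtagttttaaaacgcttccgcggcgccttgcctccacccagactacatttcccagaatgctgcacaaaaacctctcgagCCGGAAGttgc
Mrpl22: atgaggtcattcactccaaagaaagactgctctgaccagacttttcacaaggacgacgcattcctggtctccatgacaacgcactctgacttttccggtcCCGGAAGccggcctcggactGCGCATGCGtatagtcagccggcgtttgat
Mrpl42: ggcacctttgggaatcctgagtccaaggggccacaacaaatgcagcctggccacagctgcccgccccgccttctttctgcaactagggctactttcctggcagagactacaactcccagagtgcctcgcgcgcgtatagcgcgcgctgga
Mrpl52: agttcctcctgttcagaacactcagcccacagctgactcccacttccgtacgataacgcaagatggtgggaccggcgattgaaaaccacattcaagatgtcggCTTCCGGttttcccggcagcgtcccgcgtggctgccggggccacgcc
Mrpl22 held an ETS and an NRF1 match, Mrps22 and Mrpl52 an ETS match each, and Mrpl10 an NRF1 match, while Mrps23 and Mrpl42 held none of the 3 marked motifs in these bases. Mrpl46 and Mrps11 are arranged head to head on chromosome 7 with starts 42 bases apart, so that each lies in the other's upstream window. On Day3 both were lower than on Day0, with log2 differences of -0.59 for Mrpl46 and -0.67 for Mrps11. Elsewhere in their full windows Mrps23 held the ETS letters and Mrpl42 the YY1 letters, so both are among the holders counted above. Median log2 differences of members with and without each motif, given with no test, were -0.56 and -0.57 (ETS), -0.42 and -0.58 (NRF1) and -0.54 and -0.57 (YY1) for Day3 against Day0. For siPdgfra against the controls they were 0.37 and 0.31 (ETS), 0.21 and 0.33 (NRF1) and 0.24 and 0.34 (YY1).

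The genes were expressed at moderate levels. Their mean FPKM over 14 libraries had a median of 24.3, against 12.5 for all 11874 genes tested, and ran from 6.09 to 71.4. The 5 highest were Mrps21, Mrpl18, Mrpl33, Mrpl34 and Mrps33, all short genes, of which Mrps21, a small-subunit protein with a bacterial homologue, ranged over libraries from 48.0 to 94.9 FPKM. The 5 lowest were Mrps10, Mrpl19, Mrpl35, Mrpl1 and Mrpl55, and Mrps10 ranged from 4.48 to 9.82 FPKM. Members are short, with a median exon length of 1053 bases against 2974 for all genes tested, and their median GC content was 51.4% against 50.2%. Read sharing limits some of them: Mrpl53 overlaps Ccdc142 and Mrps6 overlaps Slc5a3 on the same strand, and 7 others overlap a gene on the opposite strand, while use of strand in the counting is not given in the sources used here.

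**Figure D1:**
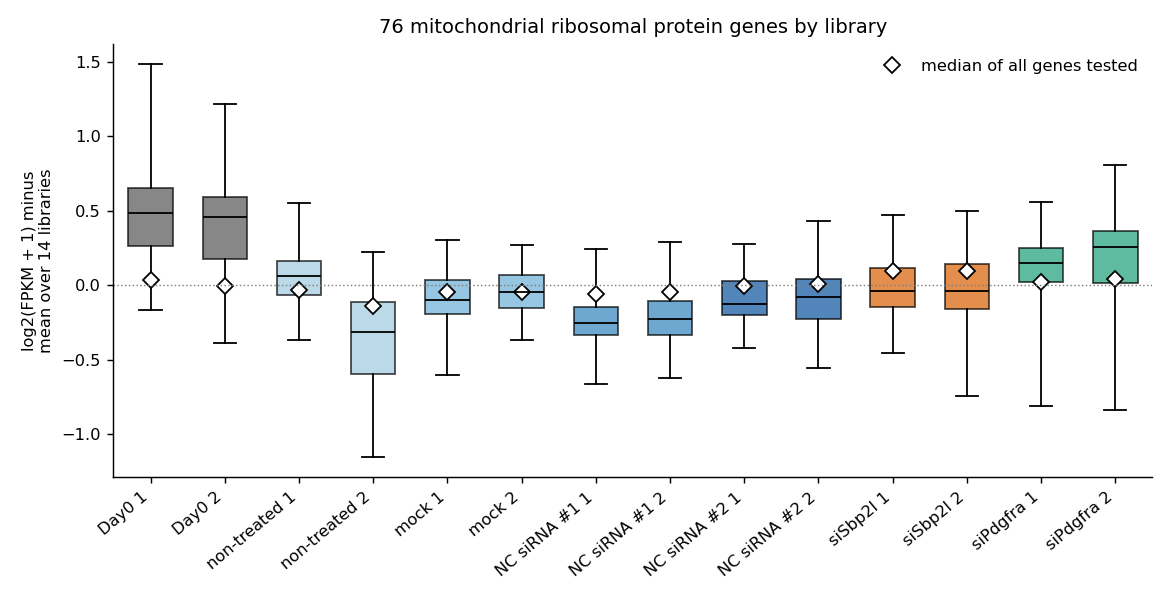
Each box holds the 76 mitochondrial ribosomal protein genes in 1 library, as log2(FPKM + 1) minus the mean of that gene over the 14 libraries (box, quartiles; line, median; whiskers, lowest and highest), and diamonds mark the median of all 11874 genes. The Day0 boxes sit highest, the siPdgfra boxes are the highest pair of Day3 with medians 0.13 and 0.21 above those of all genes, and non-treated 2 has the lowest median.

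Across libraries the summed FPKM of the 76 genes was 2758 and 2643 on Day0. On Day3 it was 2079 and 1522 in non-treated, 1859 and 1911 in mock, 1613 and 1647 in NC siRNA #1 and 1831 and 1823 in NC siRNA #2. It was 1932 and 1918 in siSbp2l and 2183 and 2326 in siPdgfra. Day0 lay above every Day3 library, and siPdgfra lay above every other Day3 library. Relative to the median of all genes in the same library, the members' median deviation was 0.45 and 0.47 on Day0, 0.13 and 0.21 in siPdgfra, -0.14 and -0.14 in siSbp2l, and between -0.20 and 0.095 in the 8 control libraries.

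From Day0 to Day3 the group fell. With limma on log2(FPKM + 1), comparing the 4 non-treated and mock libraries with the 2 Day0 libraries and adjusting p-values by Benjamini-Hochberg over 11874 genes, 55 of 76 members were lower, 0 were higher and 21 did not pass at an adjusted p of 0.05. Over all genes tested 39.7% were lower and 30.9% higher. The members' median log2 difference was -0.56, against -0.089 for all genes, and single members ran from -1.79 to 0.24. Both subunits took part: 35 of 49 large-subunit genes and 20 of 26 small-subunit genes were lower, with medians of -0.57 and -0.56. Without the non-treated group 58 members were lower and 1 was higher (42.5% and 34.4% of all genes), with 36 and 21 lower in the large and small subunits, and without non-treated replicate 2 alone 4 were higher. The count of 0 higher was by limma, where 0 members were higher at an unadjusted p under 0.05.

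Of the 76 members, 8 passed a 2-fold change with an adjusted p under 0.05, and all 8 were lower. This is a smaller share than over all genes tested, of which 26% passed the same limits in either direction. Mrpl42, a mitochondrion-specific protein of the large subunit, was 91.2 and 89.3 FPKM on Day0, 37.2 and 32.3 in non-treated and 29.8 and 32.3 in mock. Its log2 difference was -1.43 ± 0.077 (SE, adjusted p = 1.66e-08). The replicates of each group lay close together and the Day0 pair lay far above the other 12 libraries, the highest of which was 43.3 FPKM. Mrpl52, also mitochondrion-specific, went from 64.2 and 52.5 FPKM to 22.0 and 9.43 in non-treated and 15.6 and 20.2 in mock, a difference of -1.79 ± 0.27 (SE, adjusted p = 0.000106). Its spread was wider, chiefly within the non-treated pair, but the groups did not overlap. Mrpl13, whose bacterial counterpart is an early assembly protein of the large subunit, went from 61.4 and 59.2 FPKM to 26.6 and 22.2 in non-treated and 18.8 and 20.7 in mock, a difference of -1.42 ± 0.12 (SE, adjusted p = 7.88e-07).

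Mrpl12, the counterpart of the bacterial stalk protein that recruits translation factors and a known partner of the mitochondrial RNA polymerase, was 74.6 and 71.1 FPKM on Day0, 34.9 and 17.6 in non-treated and 35.0 and 31.6 in mock (-1.31 ± 0.19 SE, adjusted p = 9.06e-05). The 4 other genes past 2-fold were Mrpl30 (-1.23), Mrps18b (-1.23), Mrpl40 (-1.04) and, just past the limit, Mrpl3 (95% interval -1.19 to -0.82). Mrpl3 lines the region near the catalytic centre and is mutated in an inherited respiratory chain deficiency, and its values were 56.7 and 55.7 FPKM on Day0 against 26.5 to 30.2 in the 4 Day3 libraries. Of the 8, 7 encode large-subunit proteins and 1, Mrps18b, encodes a small-subunit protein. All 8 kept their call under each of 20 alternative settings.

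At the other end, 9 of the 76 genes had a log2 difference above 0, none of which passed the test. The highest was Mrpl36, a large-subunit protein with a bacterial homologue, with 41.5 and 35.4 FPKM on Day0 and 36.0 to 50.9 on Day3 (0.24 ± 0.13 SE, adjusted p = 0.130), where the groups overlapped. Mrps36, which is not a ribosomal subunit, had a difference of -0.19 and did not pass (adjusted p = 0.0582).

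**Figure D2:**
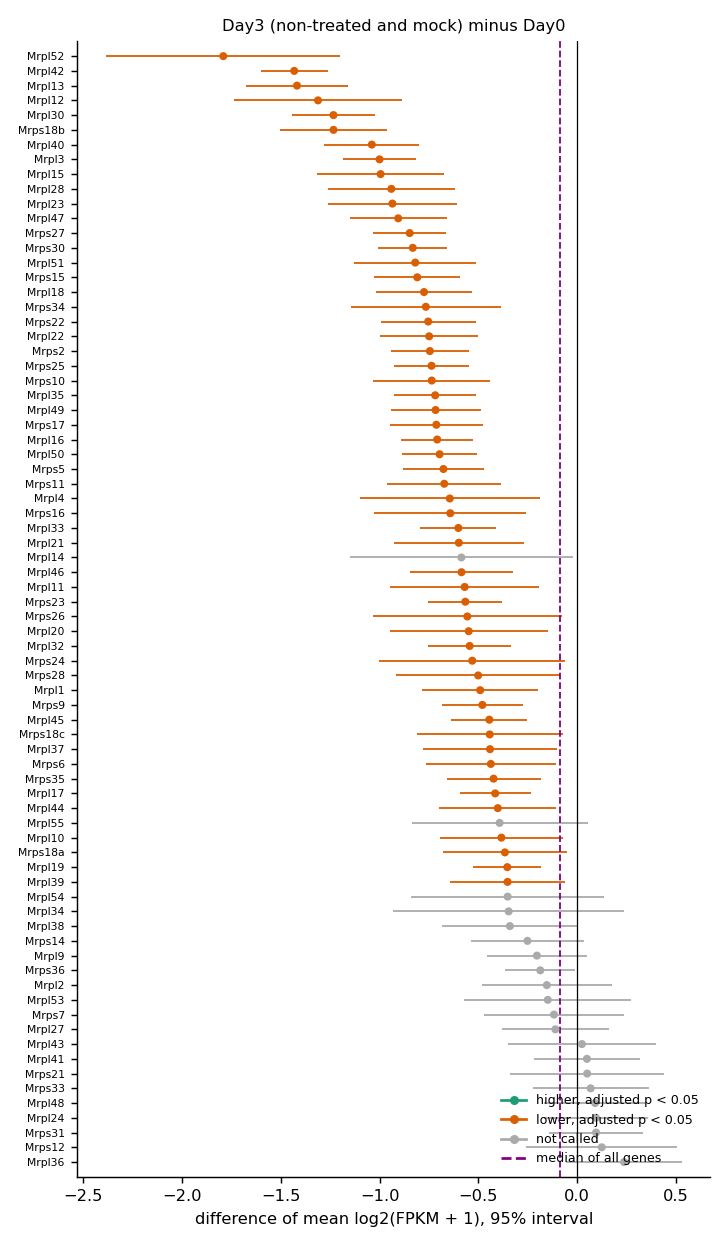
Points give the Day3 (non-treated and mock, 4 libraries) minus Day0 (2 libraries) difference of mean log2(FPKM + 1) for each of the 76 genes, with its 95% interval, coloured by call. Nearly all points lie left of the dashed median of all genes at -0.089, and the lowest are Mrpl52, Mrpl42 and Mrpl13.

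After KD of Pdgfra the group rose. Against the 8 libraries of the 4 Day3 control groups, 40 of 76 members were higher, 3 were lower and 33 did not pass, where 32.4% of the 11650 genes tested were higher and 23% lower. The median log2 difference was 0.33, against 0.089 for all genes, and ran from -0.86 to 0.93 over the members. Of the large-subunit genes 24 of 49 were higher, and of the small-subunit genes 15 of 26 (35 and 20 without the non-treated group). No member passed 2-fold, a limit that 7.99% of all genes passed in either direction. Without the non-treated group 56 were higher and 3 lower (40.9% and 29.6% of all genes), and without siPdgfra replicate 1 or replicate 2 the numbers were 24 higher with 1 lower and 13 higher with 1 lower.

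Mrps35, a mitochondrion-specific small-subunit protein, was 31.2 and 34.9 FPKM in siPdgfra against 15.3 to 20.1 in the controls, a log2 difference of 0.86 ± 0.091 (SE, adjusted p = 3.21e-05). Mrpl16, a large-subunit protein with a bacterial homologue, was 23.5 and 23.5 FPKM against 12.9 to 14.9, a difference of 0.70 ± 0.077 (SE, adjusted p = 4.03e-05). Both siPdgfra libraries lay above all 8 control libraries for these genes, and the level of Mrpl16 reached that of Day0, 24.7 and 22.1 FPKM. Mrps26 showed the greatest difference, 0.93 ± 0.21 (SE, adjusted p = 0.00391), with 52.6 and 62.6 FPKM against 18.2 to 38.5 in the controls. Here again no control library reached the siPdgfra pair, although the non-treated pair alone spanned 18.2 to 38.5 FPKM. Mrpl3 was 39.8 and 45.1 FPKM against 23.4 to 30.2 (0.64 ± 0.082 SE, adjusted p = 0.000113), and Mrpl30 46.3 and 43.2 against 24.2 to 34.7 (0.64 ± 0.093 SE, adjusted p = 0.000289). Mrps18b, Mrps18c and Mrpl20 completed the 8 greatest differences among members called higher, at 0.62, 0.61 and 0.61.

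The 3 lower members were Mrps23, Mrpl10 and Mrps16. Mrps23, a mitochondrion-specific protein of the small subunit, was 11.6 and 11.4 FPKM in siPdgfra, against 25.5 and 21.3 in non-treated, 22.9 and 21.6 in mock, 19.8 and 19.8 in NC siRNA #1, 21.9 and 20.5 in NC siRNA #2 and 21.7 and 21.1 in siSbp2l. Its log2 difference was -0.86 ± 0.081 (SE, adjusted p = 1.45e-05), and each single control gave a value between -0.96 and -0.74, all 4 past the threshold. The siPdgfra pair lay below every other library of the series. Mrpl10, which anchors the stalk of the large subunit, was 18.4 and 18.3 FPKM against 19.8 to 31.2 in the controls (-0.53 ± 0.14 SE, adjusted p = 0.00786). Mrps16, a small-subunit protein whose human gene is mutated in a respiratory chain deficiency, was 12.5 and 11.2 FPKM against 11.1 to 20.2 (-0.46 ± 0.17 SE, adjusted p = 0.0415). For Mrps16 the groups overlapped, since non-treated replicate 2 read 11.1 FPKM, and its call was lost in 11 of 27 alternatives, against 4 of 27 for Mrpl10 and 0 of 27 for Mrps23.

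Single controls moved the counts but not the direction of the median. The median of the members against that of all genes was 0.26 against 0.076 with mock alone, 0.45 against 0.10 with NC siRNA #1, 0.30 against 0.048 with NC siRNA #2 and 0.34 against 0.11 with non-treated. Members called higher numbered 19, 39, 25 and 25 in the same order. These counts, and those called against every control below, have no share of all genes beside them. They do not show an excess over all genes. In all, 9 members were higher against each of the 4 controls separately, namely Mrpl3, Mrpl16, Mrpl30, Mrpl33, Mrps15, Mrps25, Mrps27, Mrps35 and Mrps36, and 1, Mrps23, was lower against each.

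**Figure D3:**
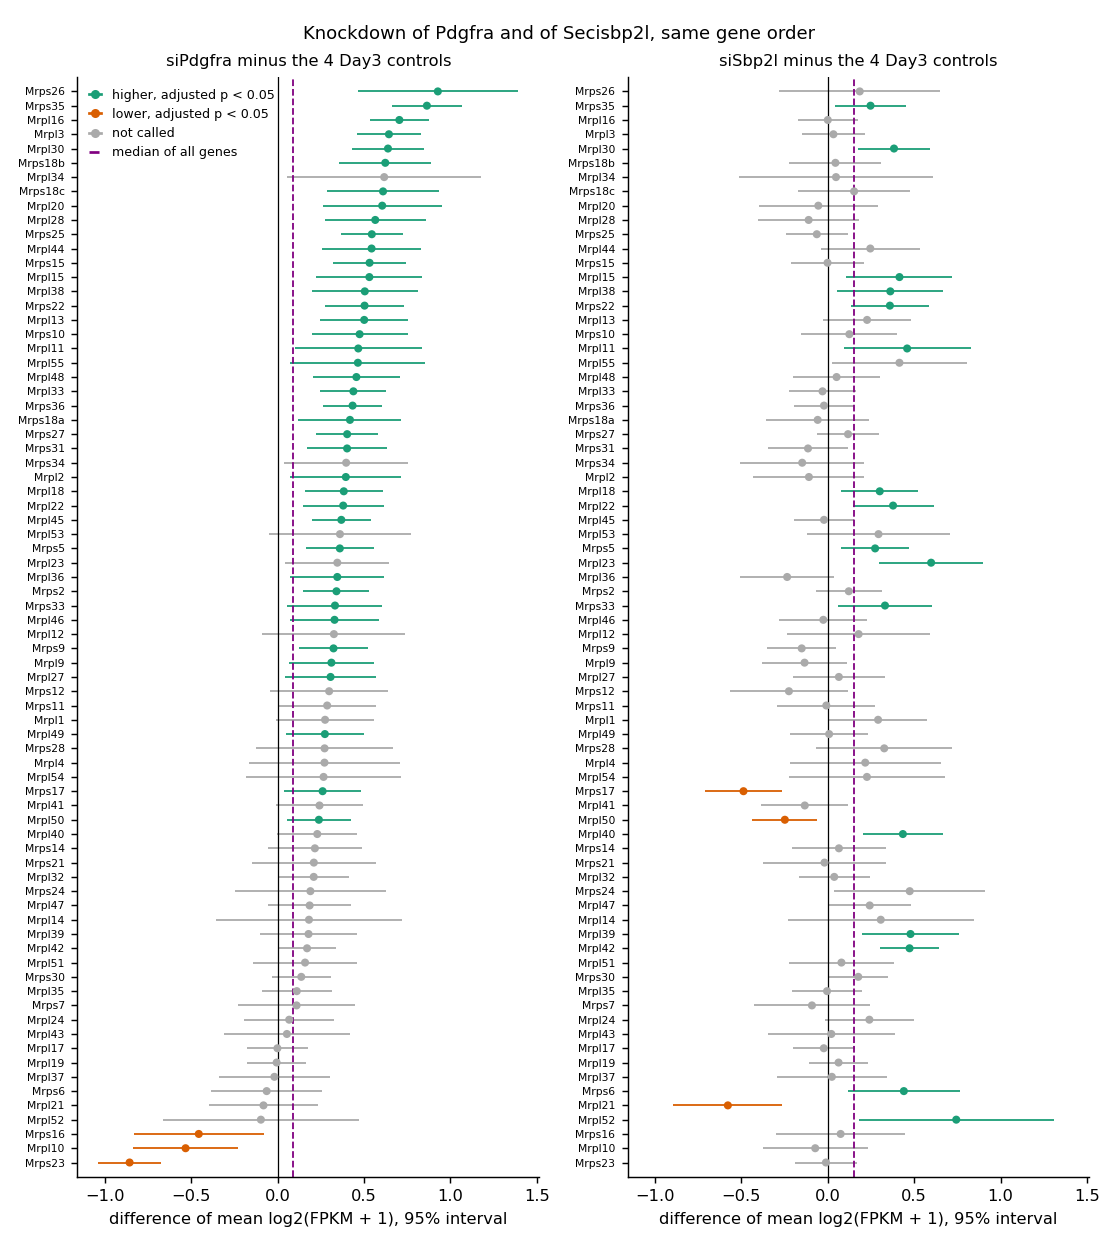
Differences of mean log2(FPKM + 1) from the 4 Day3 control groups (8 libraries) with 95% intervals for the 76 genes, siPdgfra on the left and siSbp2l on the right, both in the order of the siPdgfra values. The siPdgfra points lie mostly right of the dashed median of all genes (0.089) with Mrps23, Mrpl10 and Mrps16 at the bottom, while the siSbp2l points scatter around their own line (0.15).

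After KD of Secisbp2l a smaller share of members than of all genes was called higher or lower, and single members went both ways. Against the same 8 control libraries 16 of 76 members were higher, 3 were lower and 57 did not pass, where 35.5% of all genes tested were higher and 17.9% lower. None passed 2-fold, which 7.19% of all genes did. The members' median log2 difference was 0.064 and that of all genes 0.15. With median-ratio scaling, which moves the median of all genes to 0.0022, the split became 4 higher and 9 lower and the members' median -0.087, and with upper-quartile scaling it was 10 higher and 4 lower with a median of -0.0049, so that the sign of this median rests on the scaling. Without the non-treated group 26 were higher and 6 lower (45% and 23.5% of all genes). Leaving out 1 library gave 32 higher without non-treated replicate 1, 10 without mock replicate 1 or NC siRNA #1 replicate 2, 4 without siSbp2l replicate 1 and 2 without siSbp2l replicate 2, and 11 lower without non-treated replicate 2 and 0 without siSbp2l replicate 2.

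Mrpl42 was higher against every control taken alone, with 43.3 and 41.7 FPKM in siSbp2l against 23.9 to 37.2 in the controls, a log2 difference of 0.47 ± 0.076 (SE, adjusted p = 0.000519) that kept its call in all 27 alternatives. The siSbp2l values stood above all other Day3 libraries and below both Day0 libraries. Mrpl23, which sits at the exit of the nascent-chain tunnel, was 40.2 and 48.6 FPKM against 18.3 to 37.4 (0.60 ± 0.13 SE, adjusted p = 0.00418). Mrpl52 had the greatest difference, 0.74 ± 0.25 (SE, adjusted p = 0.0312), with 31.2 and 28.6 FPKM against 9.43 to 26.6, but its call was lost in 9 of 27 alternatives. Mrpl39 and Mrpl40, both mitochondrion-specific proteins of the large subunit, differed by 0.48 ± 0.13 (SE, adjusted p = 0.00956) and 0.43 ± 0.10 (SE, adjusted p = 0.00568). Mrpl11, Mrps6 and Mrpl15 completed the 8 greatest differences among members called higher, at 0.46, 0.44 and 0.41, of which Mrps6 shares its strand with Slc5a3. The calls for Mrpl11, Mrps6 and Mrpl15 were lost in 14, 5 and 7 of 27 alternatives. With single controls the difference of Mrps6 ran from 0.088 to 0.85 and passed against 2 of the 4, and Mrpl11 passed against 1.

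Mrps17, a small-subunit protein with a bacterial homologue, fell after siSbp2l. It was 10.6 and 9.09 FPKM in siSbp2l against 12.1 to 16.2 in the controls and 17.7 and 16.6 in siPdgfra, a difference from the controls of -0.49 ± 0.10 (SE, adjusted p = 0.00244) that passed against each control alone. The siSbp2l pair was the lowest of the series. Mrpl21 was 9.85 and 7.67 FPKM against 11.2 to 16.0 (-0.58 ± 0.14 SE, adjusted p = 0.00644), and Mrpl50 19.6 and 17.8 against 20.0 to 25.1 (-0.25 ± 0.084 SE, adjusted p = 0.0298). The groups did not overlap for either gene, but the call for Mrpl50 was lost in 10 of 27 alternatives.

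**Figure D4:**
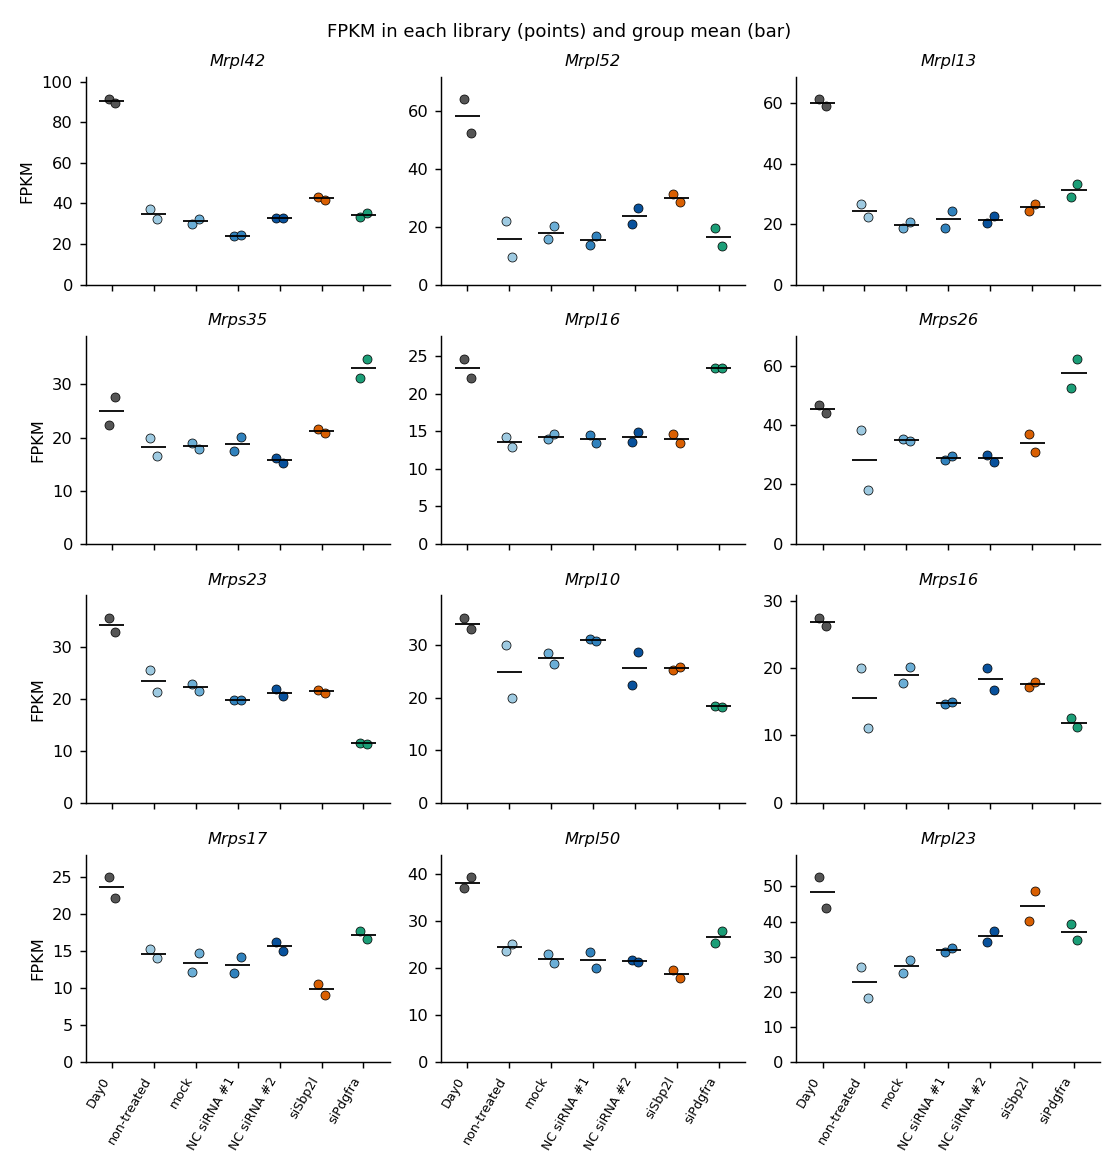
FPKM of 12 mitochondrial ribosomal protein genes in each of the 14 libraries (points, 2 per group; bars, group means; linear axes from 0). The top row holds genes that were far higher on Day0, the second row genes raised after siPdgfra, the third row genes lower after siPdgfra, and the last row Mrps17 and Mrpl50, which were lower after siSbp2l, and Mrpl23, which was higher.

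The 2 KD groups were also compared with each other. Their difference uses no control library, but its error comes from the spread within all 6 Day3 groups. Of the 76 members 26 were lower in siSbp2l than in siPdgfra, 5 were higher and 45 did not pass, where 23.4% of all genes were lower and 28.5% higher. The median was -0.21, against 0.056 for all genes, and none passed the 2-fold limit that 13.7% of all genes passed. The counts from other settings that follow have no share of all genes beside them. With median-ratio scaling the numbers were 34 lower and 1 higher. When only the 4 libraries compared were fitted, 35 were lower and 8 higher. Leaving out any 1 of the 4 libraries left 12 to 17 lower and 1 or 2 higher.

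Mrps17, Mrps26 and Mrpl16 were the furthest below siPdgfra, at -0.75 ± 0.13 (SE, adjusted p = 0.000733), -0.74 ± 0.26 (SE, adjusted p = 0.0374) and -0.70 ± 0.098 (SE, adjusted p = 0.000196). Mrpl28, Mrpl20, Mrps35, Mrpl3 and Mrps25 followed, between -0.68 and -0.61. For Mrps17 the difference had a part from each side, since the controls lay between the pairs, whereas Mrpl16 in siSbp2l, 14.7 and 13.4 FPKM, lay within the control range. The 5 genes higher in siSbp2l were Mrps23 (0.84 ± 0.10 SE, adjusted p = 8.05e-05), Mrpl52 (0.84), Mrps6 (0.50), Mrpl10 (0.46) and Mrpl42 (0.30). Of these 5, Mrps23 kept its call in each of 16 alternatives, and the other 4 lost theirs in 5 to 9. Some members were higher than the controls in both: Mrpl22 was 27.3 and 27.4 FPKM in siSbp2l and 26.9 and 27.9 in siPdgfra, with differences from the shared controls of 0.38 and 0.38 and a 95% interval for the difference between the KDs of -0.30 to 0.29. Mrps22, another gene mutated in respiratory chain deficiency, was 15.9 and 17.3 FPKM in siSbp2l and 16.6 and 20.5 in siPdgfra, with differences from the controls of 0.36 and 0.50.

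The control groups themselves differed for a few members. Between the 4 negative control siRNA libraries and the 4 without siRNA, 1 member was higher and 6 lower, where 16.3% and 11.8% of all genes were. Mrps33 was 35.1 and 37.4 FPKM in NC siRNA #1 and 45.6 and 33.5 in NC siRNA #2, against 52.2 to 61.1 without siRNA (-0.54 ± 0.11 SE, adjusted p = 0.00537), and was the 1 member to keep its call in every alternative. Mrps21, Mrps12, Mrps31, Mrpl17 and Mrpl42 were lower by smaller or less steady amounts (-0.51, -0.45, -0.28, -0.23 and -0.22), and Mrpl23 was higher (0.44). Without the non-treated group the numbers were 3 higher and 15 lower (21.3% and 19.1% of all genes). They were 20 higher without non-treated replicate 1 and 35 lower without non-treated replicate 2, and leaving out any 1 mock or NC siRNA library left 0 to 2 higher and 1 to 3 lower. With median-ratio scaling 13 were lower and 1 higher. All 10 proliferation genes were lower in the NC siRNA groups, 7 of them past 2-fold, with a median of -1.46, and their part in these differences was not tested.

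Between NC siRNA #2 and NC siRNA #1, 4 members were higher and 0 lower, against 10.8% and 10.1% of all genes. They were Mrps6 (0.76), Mrps12 (0.62), Mrpl17 (0.57) and Mrpl42 (0.43). Mrpl17, a large-subunit protein next to the tunnel exit, was 8.03 and 8.06 FPKM in NC siRNA #2 and 5.07 and 5.15 in NC siRNA #1, with 6.70 to 8.18 in the other Day3 libraries, so it was NC siRNA #1 that stood below the rest. Its difference was 0.57 ± 0.10 (SE, adjusted p = 0.00288). Leaving out any 1 of the 4 libraries left 1 or 2 members higher. The count of 0 lower was by limma, where 0 members were lower at an unadjusted p under 0.05. These counts depend on the libraries fitted, since 24 were higher and 3 lower with only the 4 libraries compared, and with GC and length trends removed 3 were lower and the median of members minus that of all genes was -0.023. Of 6 OL markers 5 were lower in NC siRNA #2 (median -1.42), 4 of them past 2-fold, and 7 of 10 proliferation genes were higher, and their part in the result was not tested.

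Genes that work around the mitochondrial ribosome were taken from lists by function, and their counts are to be read beside the 39.7% of all genes that were lower and the 30.9% that were higher on Day3. Of 6 mitoribosome subunits with other names, 5 were lower on Day3 than on Day0, with a median of -0.58. Ptcd3, a small-subunit protein, was 39.8 and 40.5 FPKM on Day0 and 13.9 to 19.4 on Day3 (-1.27 ± 0.093 SE, adjusted p = 2.32e-07), and Chchd1 differed by -1.11 ± 0.15 (SE, adjusted p = 4.96e-05). Of 24 genes for assembly and rRNA modification 15 were lower and 3 higher, among them C1qbp (-1.30), a matrix protein needed for mitochondrial translation, and Mterfd2 (1.25), which brings an rRNA methyltransferase to the ribosome and rose from 4.87 and 4.26 FPKM to 10.9 to 13.6. Of 13 translation factors 9 were lower and 2 higher, with the elongation factor gene Tsfm at -1.15. Of 19 aminoacyl-tRNA synthetase genes 12 were lower and 0 higher, led by Kars (-1.47), Yars2 (-1.31) and Gars (-1.02), where Kars and Gars also serve the cytosol. Of 10 genes for replication and transcription of mitochondrial DNA 5 were lower, with the polymerase gene Polg at -1.18. Without the non-treated group the numbers lower were 5 of the subunits, 14 of the assembly genes, 9 of the translation factors, 11 of the synthetases and 6 of the mitochondrial DNA genes, where 42.5% of all genes were lower.

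After siPdgfra, 14 of the 19 synthetase genes were higher and 0 lower, with a median of 0.34, where 32.4% of all genes were higher and 23% lower with a median of 0.089. Leaving out the non-treated group gave 14 and 1. After siSbp2l 8 were higher and 1 lower, where 35.5% of all genes were higher and 17.9% lower. Gars went furthest, from 57.5 to 67.4 FPKM in the controls to 119 and 129 (0.97 ± 0.075 SE, adjusted p = 4.10e-06), while in siSbp2l it was 34.3 and 31.6 (-0.91 ± 0.075 SE, adjusted p = 6.72e-06), so the KD groups lay on opposite sides of the controls and differed by -1.88 ± 0.095 (SE, adjusted p = 4.07e-07). Yars2 and Mars2 rose by 0.71 and 0.49 after siPdgfra. Mrrf, the factor that recycles the ribosome after termination, was 2.56 and 2.80 FPKM in siPdgfra, 9.15 and 9.57 in siSbp2l and 5.50 to 7.07 in the controls, with a log2 difference from the controls past 2-fold after siPdgfra (adjusted p = 4.95e-06, SE 0.080) and a log2 difference of 0.49 ± 0.080 (SE, adjusted p = 0.000590) after siSbp2l. Again the 2 KD groups fell on either side of the controls, which no library of theirs overlapped. The translation factors numbered 3 higher and 1 lower of 13 after siPdgfra (5 and 3 without the non-treated group), a smaller share than over all genes, and 7 higher and 1 lower after siSbp2l (11 and 1), where Tsfm was higher (0.68) and Guf1 lower (-0.54).

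With all 4 controls the 24 assembly genes were called no more often than all genes after either KD. After siPdgfra 7 were higher and 3 lower (13 and 3 without the non-treated group, where 40.9% and 29.6% of all genes were), with the rRNA methyltransferase genes Rnmtl1 and Mrm1 at 0.68 and 0.60 and Mterfd2 at -0.52. After siSbp2l 6 were higher and 1, Eral1, was lower (10 and 2 without the non-treated group). Eral1, a GTPase that chaperones the rRNA of the small subunit, was 3.06 and 3.48 FPKM in siSbp2l against 6.44 to 9.64 in the controls and 11.1 and 9.49 in siPdgfra (-1.09 ± 0.11 SE, adjusted p = 3.54e-05). The siSbp2l pair lay below all other libraries. Of the 6 differently named subunits, Aurkaip1 and Chchd1 were lower after siSbp2l (-0.62 and -0.57) and Dap3 higher (0.24), while Dap3 and Gadd45gip1 were higher after siPdgfra (0.23 and 0.50). The call for Gadd45gip1 was lost in 14 of 27 alternatives. Of the 10 mitochondrial DNA genes, 3 were higher and 0 lower after siSbp2l (Polg 0.39, Tfb2m 0.27 and Tfam 0.25). The call for Tfb2m was lost in 17 of 27 alternatives and that for Tfam in 7. After siPdgfra 4 were higher and 1 lower (32.4% and 23% of all genes), led by Polg2 (0.60), Peo1 (0.47) and Polg (0.43). The 3 of 10 after siSbp2l is a smaller share than over all genes. Without the non-treated group the numbers were 7 higher after siSbp2l (45% of all genes) and 5 higher with 1 lower after siPdgfra.

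Of 9 regulators of nuclear genes for mitochondria, 6 were lower on Day3 and 0 higher (7 and 0 without the non-treated group). After siSbp2l 5 were higher and 0 lower, and after siPdgfra 5 were higher and 1 lower. Over all genes tested, 39.7% were lower and 30.9% higher on Day3. The shares higher and lower were 35.5% and 17.9% after siSbp2l and 32.4% and 23% after siPdgfra. Myc, a transcription factor that drives growth genes, was 93.7 and 91.4 FPKM on Day0, 9.45 to 25.9 in the Day3 controls, 41.9 and 41.0 in siSbp2l and 28.5 and 27.5 in siPdgfra. It differed by -2.02 ± 0.13 (SE, adjusted p = 9.98e-08) on Day3 and by 1.18 ± 0.13 (SE, adjusted p = 4.08e-05) after siSbp2l. Its relative Mycn was 4.04 and 3.80 FPKM on Day0, 0.848 to 2.81 in the controls, 1.77 and 1.97 in siSbp2l and 9.77 and 9.94 in siPdgfra. It differed by -1.28 ± 0.10 (SE, adjusted p = 6.36e-07) on Day3 and by 2.10 ± 0.10 (SE, adjusted p = 2.53e-07) after siPdgfra. Thus siPdgfra was the only group whose Mycn lay above Day0, and siSbp2l had the highest Myc of the Day3 groups. The coactivator gene Pprc1 had a log2 difference of -1.70 on Day3 and was called lower. The partner gene Max was 53.4 and 43.0 FPKM in siSbp2l and 23.8 and 22.9 in siPdgfra (1.01 ± 0.12 SE, adjusted p = 9.26e-05).

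The cytosolic ribosomal protein genes had larger median differences than the mitochondrial ones, with the limit that many have near-identical pseudogene copies that can share reads. On Day3 76 of 77 were lower and 0 higher, with a median of -1.23, against -0.56 for the mitochondrial genes. After siPdgfra 56 of 77 were higher and 0 lower (median 0.55), and after siSbp2l 52 were higher and 3 lower (median 0.49). Leaving out the non-treated group gave 74 lower on Day3, 70 higher after siPdgfra and 65 higher with 3 lower after siSbp2l. The nuclear genes for the respiratory chain and ATP synthase, which are assembled with products of the mitochondrial ribosome, had a smaller median difference on Day3: 27 of 76 were lower and 5 higher, smaller shares than over all genes, with a median of -0.20. After siPdgfra 27 of the 76 were higher and 5 lower (median 0.34, close to the mitochondrial ribosomal proteins' 0.33). After siSbp2l 3 were higher and 4 lower (median 0.094). Over all genes tested, 39.7% were lower and 30.9% higher on Day3. After siPdgfra 32.4% of all genes were higher and 23% lower, and after siSbp2l 35.5% and 17.9%. The 27 higher after siPdgfra are near the share over all genes. Of the 75 tested without the non-treated group, 33 were lower and 14 higher on Day3 (42.5% and 34.4% of all genes). After siPdgfra 58 of these were higher and 6 lower (40.9% and 29.6% of all genes), and after siSbp2l 24 and 11 (45% and 23.5%). The lists were not compared with each other by a test.

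**Figure D5:**
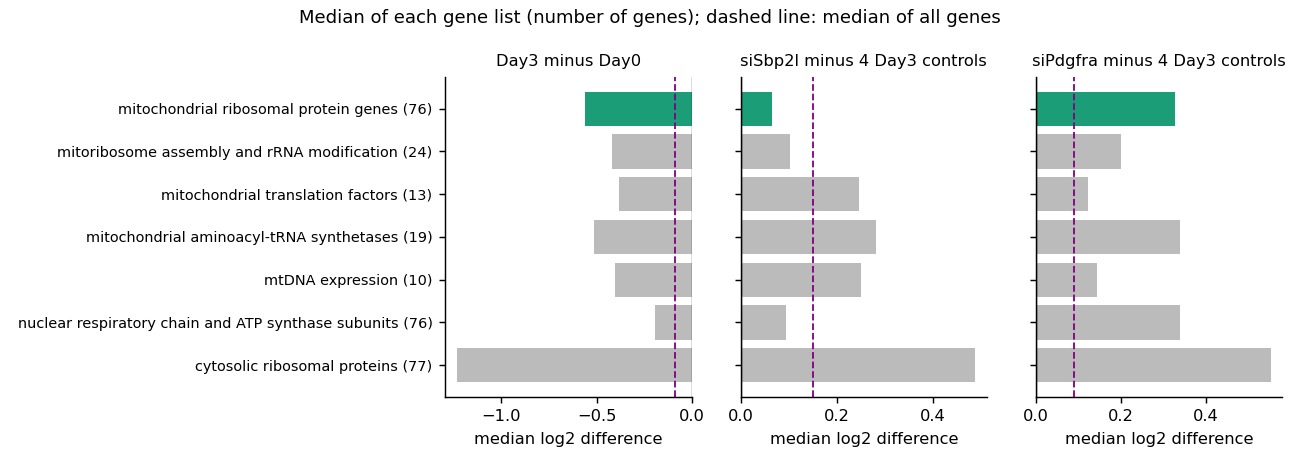
Bars show the median log2 difference of each gene list (number of genes tested in parentheses) on Day3 relative to Day0 and in each KD relative to the 4 Day3 control groups, with the median of all genes as a dashed line; the axes differ between panels. Cytosolic ribosomal protein genes have the longest bar in each panel, and the mitochondrial ribosomal protein genes, in green, lie below the line on Day3 and after siSbp2l and above it after siPdgfra.

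Markers of cell state and cell type also differed between these groups. Summed FPKM of 10 proliferation genes was 1317 and 1385 on Day0, 72.3 to 161 in the Day3 controls, 83.2 and 84.6 in siSbp2l and 124 and 135 in siPdgfra. All 10 were lower on Day3, where 39.7% of all genes were. After siSbp2l 8 were lower (7 without the non-treated group), against 17.9% of all genes (23.5%). After siPdgfra 9 were higher, against 32.4% of all genes. The siPdgfra sums lay above the 72.3 to 85.6 of the NC siRNA libraries and below the 145 to 161 of the non-treated and mock libraries. Summed FPKM of 6 OL markers was 392 to 435 on Day0, 4617 to 8696 in the Day3 controls, 1596 and 1780 in siSbp2l and 4094 and 4736 in siPdgfra, and that of 6 OPC markers 1220 to 1292, 661 to 872, 734 to 756 and 588 to 679. The OPC sum includes Pdgfra, the target of siPdgfra, which was higher in siSbp2l. It also joins markers that went opposite ways on Day3, 2 higher and 4 lower (30.9% and 39.7% of all genes). Among them Gpr17 was 57.7 and 47.3 FPKM on Day0 and 192 to 229 in non-treated and mock. Summed FPKM of 6 astrocyte markers, with Aqp4 and Gja1 below 1 in every library, was 33.8 to 36.1 on Day0, 74.6 to 135 in the Day3 controls, 89.3 to 89.8 in siSbp2l and 37.6 to 38.3 in siPdgfra. That of 6 neuron markers, led by Tubb3, was 27.5 to 29.4, 48.2 to 276, 200 to 202 and 236 to 240, with Stmn2 and Gad1 below 1 throughout. This sum too joins markers that went opposite ways. Of the 4 neuron markers tested on Day3 against Day0, 2 were higher and 2 lower (30.9% and 39.7% of all genes). Microglia and fibroblast or pericyte markers summed to at most 0.190 FPKM in any library, and 5 endothelial markers to at most 1.93. The part of these differences in the results on ribosomal protein genes was not tested.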

How the data were processed

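Poly(A)-selected, stranded RNA-seq libraries were made from 14 cultures (2 per group), and gene-level FPKM values were deposited by the authors, who worked in ArrayStudio with mouse refGene models and used DESeq2 for their own comparisons. The aligner, and whether strand was used in counting, are not given in the sources used here. The deposited fold changes, estimates, p-values and adjusted p-values of the authors' comparisons were not used. FPKM fixes library size and gene length, so a change in total RNA per cell is not seen. Samples are separate cultures by the study's methods, and groups follow the labels. The columns taken as non-treated are named in the deposited table by day and replicate alone, and were matched to the Day3 label that names no treatment, and 1 siSbp2l column is spelled Sbbp2l.

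Genes with FPKM of at least 1 in at least 2 libraries were tested on log2(FPKM + 1), so that fold changes of low genes are understated, with limma 3.58.1 in R 4.3.3 (1 mean per group, moderated with trend and robust settings, two-sided). P-values were adjusted by Benjamini-Hochberg over all genes of the fit, and a gene was called at an adjusted p under 0.05. Comparisons within Day3 came from 1 fit of 12 libraries (11650 genes), and Day3 against Day0 from a fit of 14 (11874 genes). Errors are SE unless stated. The fit was run on simulated data with independent normal noise, for the comparison of siPdgfra with the Day3 controls only. The other comparisons and steps were not tested in this way.

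Fragment totals were estimated from the steps between low FPKM values, and at the median of 533 fragments per value counting alone gives a coefficient of variation of 4.33%, and 16.9% at the lowest of 35.0. Such figures cover counting error only. Members and lists were chosen with earlier results of these data known. Named members were the 5 highest and 5 lowest by mean FPKM, up to 8 called higher and 8 called lower per comparison by size, and every called member past 2-fold, and from each other list called genes past 2-fold (at most 4 per comparison) or otherwise the largest called (at most 3). Mrpl36, Mrpl46, Mrps11, Mrpl22 and Mrps22 were named after their values were seen, as were the members called against all 4 controls. Alternatives covered scaling, pseudocount, low-value filter, libraries in the fit, moderation, replicate block, GC and length trends, left-out libraries, single controls and a 2-fold limit. Counts for other lists and subunits without the non-treated group were added after seeing the data. Promoter windows are from RefSeq tables of GRCm38.p6.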

Additional observations from a re-analysis of the deposited data

Results flagged for a closer look

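The 13 members below were picked out because the response of a member to siSbp2l differed from its response to siPdgfra, by the limma contrast between both KD groups at an adjusted p under 0.05. They are the 5 called higher and the 8 with the largest negative differences among the 26 called lower, and each group had 2 libraries.

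Higher in siSbp2l, as log2 differences, were Mrps23 (0.84), Mrpl52 (0.84), Mrps6 (0.50), Mrpl10 (0.46) and Mrpl42 (0.30). Lower in siSbp2l were Mrps17 (-0.75), Mrps26 (-0.74), Mrpl16 (-0.70), Mrpl28 (-0.68), Mrpl20 (-0.66), Mrps35 (-0.62), Mrpl3 (-0.61) and Mrps25 (-0.61). For Mrps23 and Mrpl10 the siPdgfra pair alone lay outside the range of the control libraries, below it. For Mrps26, Mrpl16, Mrpl28, Mrpl20, Mrpl3 and Mrps25 the siPdgfra pair alone lay above that range. For Mrpl52, Mrps6 and Mrpl42 the siSbp2l pair alone lay above it. Both pairs lay outside it for Mrps17, on opposite sides, and for Mrps35, both above. Summed OL markers were 1596 and 1780 FPKM in siSbp2l against 4094 and 4736 in siPdgfra, and the part of this in the differences was not tested.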

How the results depend on the processing

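Values below are numbers of members called higher or lower, or the median log2 difference of members minus that of all genes. The counts have no share of all genes beside them, so they show only how far the calls of members moved. On Day3 against Day0, 1 was higher with median-ratio or upper-quartile scaling or without the non-treated group, 5 with GC and length trends removed, and 8 were lower past 2-fold; the median was -0.56 with no filter on low values and -0.35 with GC and length trends removed. For siSbp2l against the controls, 4 were higher and 9 lower with median-ratio scaling, 10 higher with upper-quartile scaling, 26 higher and 6 lower without the non-treated group, 9, 6 and 8 higher against non-treated, mock and NC siRNA #2 alone, and 0 past 2-fold either way; the median turned positive with no filter (0.032) and against NC siRNA #1 alone (0.022). For siPdgfra, 25, 19 and 25 were higher against non-treated, mock and NC siRNA #2 alone, 1 was lower against non-treated alone, and 0 passed 2-fold; the median was 0.33 with no filter and 0.35 against NC siRNA #1 alone. Between the KD groups the number higher was 1 with median-ratio scaling, 2 with no filter, 8 with only the libraries compared and 9 with GC and length trends removed, and 0 passed 2-fold either way. For NC siRNAs against no siRNA, 13 were lower with median-ratio scaling, 11 higher with GC and length trends removed, 3 higher and 15 lower without the non-treated group, and 0 past 2-fold. For NC siRNA #2 against #1, 24 were higher and 3 lower with only the libraries compared, 3 lower with GC and length trends removed, when the median reversed to -0.023, and 0 higher past 2-fold. Secisbp2l after siPdgfra reversed to 0.065 against NC siRNA #2 alone, and Mrpl42 in the NC siRNA comparison to 0.014 with GC and length trends removed. With no filter the set of genes tested differs by construction; the cause of the other shifts was not tested.

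Leaving out 1 library gave, for Day3 against Day0, 0 to 4 higher, 43 to 67 lower and medians of -0.58 to -0.35. For siSbp2l it gave 2 to 32 higher, 0 to 11 lower and -0.10 to -0.044, and for siPdgfra 13 to 59 higher, 1 to 3 lower and 0.20 to 0.28. Between the KD groups it gave 1 to 2 higher, 12 to 17 lower and -0.30 to -0.22, for NC siRNAs against no siRNA 0 to 20 higher, 1 to 35 lower and -0.17 to 0.0018, and for NC siRNA #2 against #1 1 to 2 higher, 0 lower and 0.060 to 0.10. A group left with 1 library was assumed to vary like the others.

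Replicate numbers are shared between groups, but their deviations correlated from -0.38 to 0.47 over 21 pairs of groups, with 4 over 0.1, so the numbers were not taken as pairing the samples. With the replicate block, higher and lower numbered 0 and 55 for Day3, 13 and 3 for siSbp2l, 35 and 3 for siPdgfra, 2 and 23 between the KD groups, 1 and 3 for NC siRNAs and 4 and 0 for NC siRNA #2. With the block and GC and length trends removed together, 5 were higher on Day3 (median -0.35), 25 higher and 5 lower for siSbp2l, 9 higher between the KD groups, 9 higher for NC siRNAs (Mrpl42 0.014), and 3 lower for NC siRNA #2 (median -0.023).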
